A study of Mus musculus with 43 samples.

Results

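Classical monocyte marker genes were followed through 4 mononuclear phagocyte populations sorted from the lungs of newborn mice. The 7 genes are Ly6c1, Ly6c2, Ccr2, Vcan, Ms4a4c, Plac8 and Hp, taken by matching the Ensembl identifiers of the count table to gene symbols, and they are 7 of the 37991 genes in it. Their identifiers are ENSMUSG00000079018 (Ly6c1) and ENSMUSG00000022584 (Ly6c2) on chromosome 15, ENSMUSG00000049103 (Ccr2) on 9, ENSMUSG00000021614 (Vcan) on 13, ENSMUSG00000024675 (Ms4a4c) on 19, ENSMUSG00000029322 (Plac8) on 5 and ENSMUSG00000031722 (Hp) on 8. Newborn C57BL/6 pups of mixed litters were kept for 1.5 days in hyperoxia, at an inspired oxygen fraction of 0.9, or in normoxia. No transgene or deletion is named in the labels. Cells were sorted by flow cytometry from whole digested lungs into Ly6Chi monocytes/macrophages (high Ly6C, low CD11c), Ly6Clo monocytes/macrophages (low Ly6C, high CD11c), dendritic cells (DC, with high CD11c and high MHC class II) and alveolar macrophages (AM, with high CD11c and high Siglec-F). There were 5 hyperoxic libraries of each population, against 6 normoxic libraries of Ly6Chi, DC and AM and 5 of Ly6Clo, which makes 43 libraries in 8 groups. The libraries carry litter numbers 93, 100 and 108, every litter holds both oxygen conditions in every population, and each hyperoxic group has 1 library of litter 100.

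Classical monocytes leave the bone marrow in a CCR2-dependent way, circulate with high surface Ly6C and enter inflamed tissue, where they can become macrophages or cells that resemble dendritic cells. Non-classical monocytes carry little Ly6C and patrol the vessel wall. The 7 genes have different roles in this cell. Ly6c1 and Ly6c2 encode small GPI-anchored proteins that antibodies to Ly6C bind. Ccr2 encodes the receptor for the chemokine CCL2, Vcan the matrix proteoglycan versican, Ms4a4c a membrane protein of the MS4A family, Plac8 a small cysteine-rich protein and Hp haptoglobin, which binds free haemoglobin. Ly6c1 is also a known gene of lung endothelium, Vcan of mesenchymal cells and Hp of neutrophils.

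Ly6c1 and Ly6c2 are near-identical copies on chromosome 15, and the beginnings of their coding sequences are shown because the reads that tell them apart decide which copy is counted. Both are on the minus strand of build GRCm38 in the GENCODE M21 annotation, Ly6c1 at chr15:75045013-75048830 and Ly6c2 at chr15:75108161-75111970, each with 4 exons. Their coding sequences, of 393 bases each, differ at 9 positions (97.7% identity), and 6 of the 9 lie in the first 80 bases, where they are in capitals below.
Ly6c1: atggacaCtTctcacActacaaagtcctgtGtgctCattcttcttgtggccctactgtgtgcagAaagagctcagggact
Ly6c2: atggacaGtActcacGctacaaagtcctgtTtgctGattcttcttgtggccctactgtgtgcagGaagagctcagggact
The longest identical stretch runs for 188 bases, from position 66 to position 253 of the coding sequence. Of all 50-base windows of the transcripts, 31.7% of those of Ly6c1 also occur in Ly6c2 and 32.6% of those of Ly6c2 also occur in Ly6c1. A read from such a window cannot be given to either copy, and how the authors' counting treated it is not given in the sources used here, so the split between Ly6c1 and Ly6c2 is uncertain.

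The promoters of the pair were also compared, because the copies had different levels across the populations. RefSeq promoters (GRCm38.p6, 250 bases before to 50 after each start) were found for 6 of the 7 genes, all but Hp. The first listed start of each copy is shown, at chr15:75048788-75049087 for Ly6c1 and chr15:75111922-75112221 for Ly6c2, both read on the minus strand, with the letters GAGGAAGT, a core bound by PU.1 and other ETS factors, in capitals.
Ly6c1 promoter: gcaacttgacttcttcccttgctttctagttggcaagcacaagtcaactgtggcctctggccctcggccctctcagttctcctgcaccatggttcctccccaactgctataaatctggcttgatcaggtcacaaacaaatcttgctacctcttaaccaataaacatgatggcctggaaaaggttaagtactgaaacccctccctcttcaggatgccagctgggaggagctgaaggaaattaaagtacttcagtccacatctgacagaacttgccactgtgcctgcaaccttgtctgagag
Ly6c2 promoter: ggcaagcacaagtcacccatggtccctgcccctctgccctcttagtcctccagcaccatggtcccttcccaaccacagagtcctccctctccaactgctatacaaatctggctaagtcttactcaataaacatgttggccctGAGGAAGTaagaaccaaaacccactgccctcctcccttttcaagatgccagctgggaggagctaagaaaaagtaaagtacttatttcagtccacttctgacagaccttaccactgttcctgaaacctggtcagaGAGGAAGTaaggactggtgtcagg
The motif, searched on both strands, occurs 2 times in the Ly6c2 promoter, 0 times in this Ly6c1 promoter and 1 time in the promoter of the second listed Ly6c1 start. The 2 Ly6c1 windows overlap, and the first one ends inside the match that the second one holds whole. The 0 therefore reflects where the window was cut, and is no difference between the copies at that site. The motif is in 3 of the 9 promoters of the 6 genes and in 3.2% of all 32851 promoters in the table. These 3 belong to Ly6c1 and Ly6c2, near-identical copies whose own windows overlap, so they are not separate cases. The core of an interferon-stimulated response element, searched as GAAA, any 2 bases and GAAA, is in 0 of the 9 promoters and 3.44% of all promoters. The letters TTGCNNAA, the ends of a C/EBP site, are in 1 of the 9 promoters, of Plac8, and 10.8% of all promoters. These are matches of letters in these windows only.

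Library totals ranged from 551960 to 2403861 counts, and 5 libraries had fewer than 1000000 counts (4 of AM and 1 of Ly6Clo). Of the 7 genes, 6 were counted in all 43 libraries and Ms4a4c was at 0 in 1 normoxic AM library. Levels are counts in a library of 1000000 (CPM) after TMM scaling, which evens out library composition by a trimmed mean of gene ratios. Markers were read beside the labels: Siglecf, the gene of the AM gate, averaged 86.4 ± 14.7 CPM in hyperoxic AM and 131 ± 33.0 CPM in normoxic AM (SD). In normoxia a list of 12 alveolar macrophage markers summed to 3813 to 4547 CPM in AM, and to 1958 to 3175 CPM in Ly6Clo. It summed to 732 to 882 CPM in Ly6Chi and 284.5 to 494 CPM in DC. A list of 8 B cell markers summed to 774 to 1590 CPM in normoxic DC, so these sums do not show pure populations. Flt3, a dendritic cell receptor gene, averaged 213 ± 62.3 CPM in hyperoxic DC and 287 ± 40.8 CPM in normoxic DC, beside 14.4 ± 8.78 CPM in normoxic Ly6Chi. All comparisons are of bulk RNA, in which fewer cells of a type and less RNA per cell cannot be told apart. The labels tie no library to a pup and do not say whether libraries of different populations share pups, so p-values take libraries as independent and measure the spread between them.

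Vcan and Hp were higher in Ly6Chi cells than in every other population with no overlap between libraries, and Ly6c2 and Ms4a4c were higher there too. Overlap was read for the 7 genes only, so the share of all genes with no overlap is not known. In normoxia Ccr2 was not called over DC or Ly6Clo, Plac8 was not called over DC, and Ly6c1 was not called over AM. In normoxia 6 of the 7 genes were higher in Ly6Chi than in Ly6Clo, 5 were higher than in DC and 6 were higher than in AM (edgeR quasi-likelihood F test, Benjamini-Hochberg adjusted p under 0.05 over all genes tested). Among all 12529 genes tested, 13.7% were higher in Ly6Chi than in Ly6Clo, 13.1% higher than in DC and 27.4% higher than in AM. The median log2 fold change of the 7 was 2.57 against Ly6Clo, 1.63 against DC and 3.70 against AM, and over all genes it lay within 0.1 of 0 in each. Because Ly6C protein was part of the Ly6Chi and Ly6Clo gates, the values of Ly6c1 and Ly6c2 describe the sort.

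**Figure D1:**
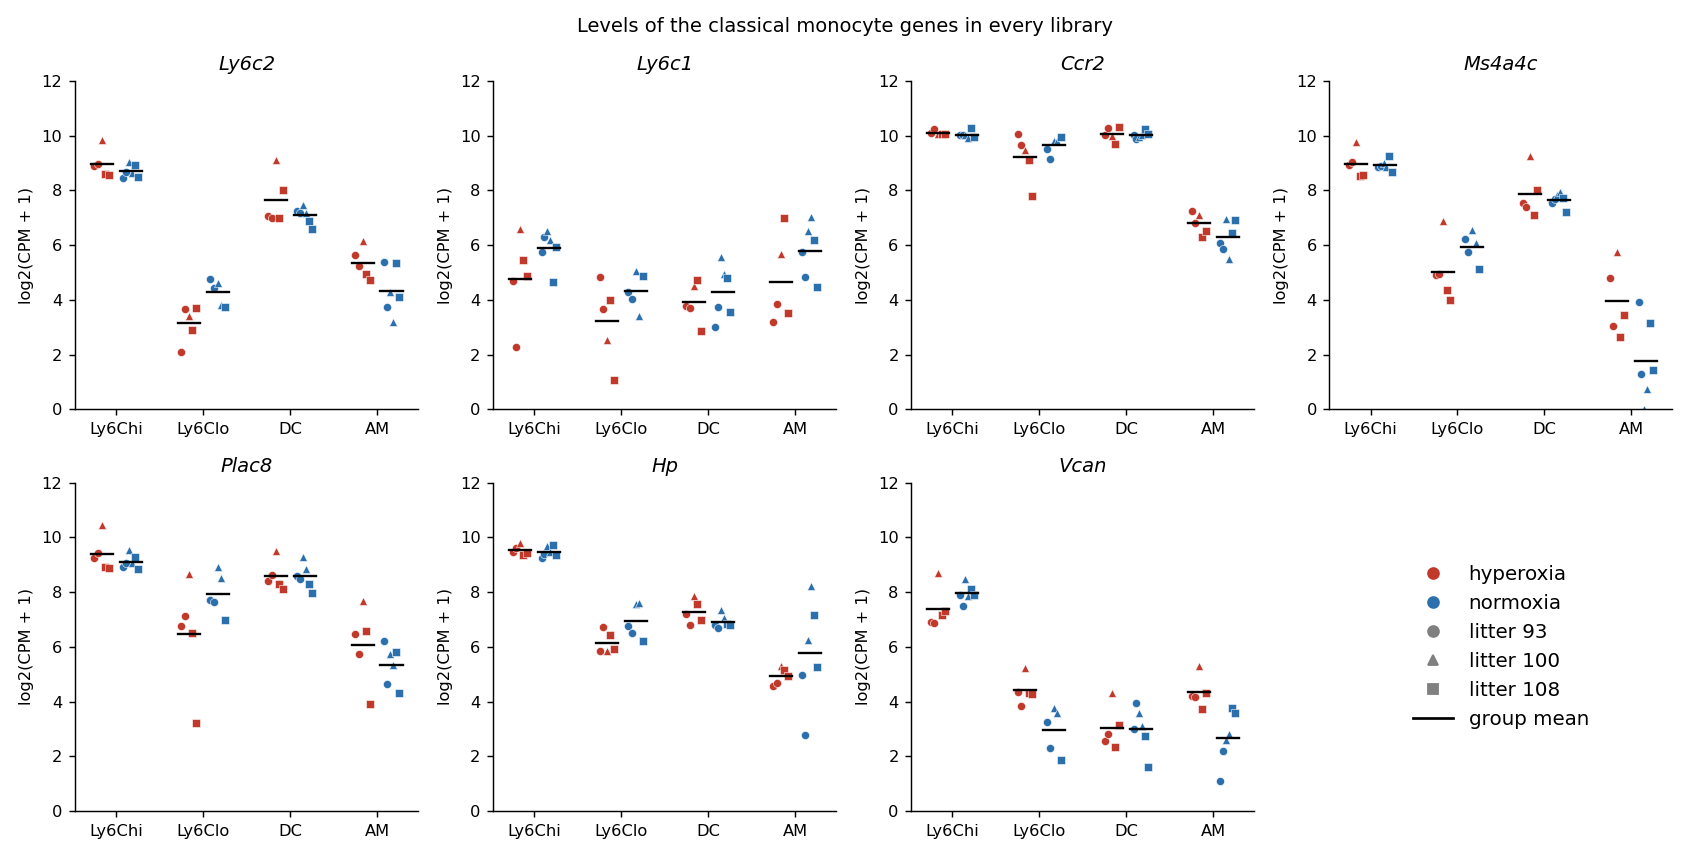
Level of each of the 7 genes in every library, as log2(CPM + 1), by population with hyperoxia to the left of normoxia; marker shape gives the litter and black bars the group means. Vcan and Hp of all 11 Ly6Chi libraries lie above every other library, Ccr2 averages 1054 CPM in normoxic Ly6Chi and 1048 CPM in normoxic DC, and Ly6c1 overlaps in all populations.

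Among the surface antigens, Ly6c2 followed the gate. In Ly6Chi it was at 381, 386, 469, 503 and 929 CPM in hyperoxia, against a lowest, median and highest value of 353, 401 and 530.1 CPM in normoxia. In Ly6Clo it was at 3.23, 6.52, 9.59, 11.5 and 12 CPM in hyperoxia, against 12.2, 13.2, 20.5, 23.6 and 25.9 CPM in normoxia. DC averages lay between them. AM overlapped with Ly6Clo in normoxia, while in hyperoxia AM was at 25.7 to 70.5 CPM (mean 42.2 ± 18.0 CPM), above every hyperoxic Ly6Clo library. In normoxia DC averaged 138 ± 27.9 CPM, Ly6Clo 19.1 ± 6.15 CPM and AM 22.5 ± 14.0 CPM (SD). The log2 fold change of Ly6Chi over DC was 1.63 ± 0.29 (SE, adjusted p = 2.838e-05) and of DC over Ly6Clo 2.86 ± 0.36 (adjusted p = 1.018e-07), while that of Ly6Clo over AM, at -0.35 ± 0.39, was not called (adjusted p = 0.569).

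Ly6c1 had a different order of levels from its copy. It averaged 62.6 ± 22.9 CPM in normoxic Ly6Chi and 65.6 ± 40.7 CPM in normoxic AM, with 22.3 ± 15.2 CPM in DC and 20.7 ± 9.18 CPM in Ly6Clo, and its range overlapped between Ly6Chi and each other population. The log2 fold change of Ly6Chi over AM was 0.07 ± 0.53 (adjusted p = 0.929). That of DC over AM was -1.60 ± 0.56 (adjusted p = 0.0176), and was not called without litter 93 (adjusted p = 0.0865) or litter 100 (adjusted p = 0.0703). Ly6c1 was called in Ly6Chi over Ly6Clo (1.61 ± 0.60, adjusted p = 0.0411) and over DC (1.67 ± 0.56, adjusted p = 0.0232), and neither call held without litter 93 (adjusted p = 0.241 and 0.309) or litter 100 (adjusted p = 0.216 and 0.0535). Of 13 alternative settings, these among them, 8 kept the call over Ly6Clo and 10 the call over DC. Leaving out 1 library at a time, the call over Ly6Clo was lost in 13 of 43 cases and the call over DC in 3 of 43. Ly6c1 made up a median of 6.87% of the counts of the pair in hyperoxic Ly6Chi and 14.4% in normoxic Ly6Chi, and 28.8% in hyperoxic AM and 66.8% in normoxic AM. With the counts of the pair summed, Ly6Chi exceeded Ly6Clo by 3.63, DC by 1.62 and AM by 2.502 on the log2 scale in normoxia, and all 3 were called.

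Ccr2, the trafficking receptor, had nearly equal means in Ly6Chi and DC. In normoxia it averaged 1054 ± 103 CPM in Ly6Chi, 1048 ± 91.1 CPM in DC, 815 ± 167 CPM in Ly6Clo and 83.0 ± 32.7 CPM in AM. The log2 fold change of Ly6Chi over DC was 0.01 ± 0.21, with a 95% interval from -0.41 to 0.42, and that of Ly6Chi over Ly6Clo was 0.38 ± 0.23 (adjusted p = 0.2205). AM stood apart, with a log2 fold change of 3.70 ± 0.25 for Ly6Chi over AM (adjusted p = 2.538e-15). In hyperoxia Ccr2 was higher in Ly6Chi than in Ly6Clo by 0.73 ± 0.24 (adjusted p = 0.0167), and this call was lost without litter 108 (0.36, adjusted p = 0.293) and without Ly6Clo hyperoxia replicate 5 (adjusted p = 0.0645). That library had the lowest Ccr2 of its group, at 224 CPM, against 554, 706, 801 and 1061 CPM in the other hyperoxic Ly6Clo libraries.

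Vcan, the matrix proteoglycan gene, had the largest fold change of the 7 over Ly6Clo and over DC in normoxia. It was at 117, 120.5, 142, 156 and 411 CPM in hyperoxic Ly6Chi, and at 179, 235 and 355 CPM (lowest, median and highest) in normoxic Ly6Chi. Outside Ly6Chi no library exceeded 38.1 CPM, so the 11 Ly6Chi libraries did not overlap with any other population. In normoxia the log2 fold change of Ly6Chi was 5.13 ± 0.36 over Ly6Clo (35.1-fold, adjusted p = 2.25e-14), 5.01 ± 0.33 over DC (32.2-fold) and 5.27 ± 0.35 over AM (38.45-fold). Among the other populations no pair was called for Vcan, with means of 7.94 ± 4.27 CPM in DC, 7.75 ± 4.37 CPM in Ly6Clo and 6.59 ± 4.41 CPM in AM.

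Hp, the haemoglobin-binding member, was the other gene with no overlap. It averaged 746 ± 91.0 CPM in hyperoxic Ly6Chi and 718 ± 95.5 CPM in normoxic Ly6Chi, with no Ly6Chi library under 603 CPM, and no library of another population exceeded 295 CPM. In normoxia its log2 fold change in Ly6Chi was 2.57 ± 0.38 over Ly6Clo, 2.59 ± 0.35 over DC and 3.06 ± 0.37 over AM (adjusted p = 2.347e-06, 4.771e-07 and 1.248e-08). Over AM it was 3.65 (12.6-fold, against 8.32-fold with all libraries) without AM normoxia replicate 4. Markers of neutrophils, which also express Hp, moved with this difference: 12 of the 15 neutrophil genes tested were higher in Ly6Chi than in Ly6Clo in normoxia, against 13.7% of all genes. The summed level of the neutrophil list was 2106 to 3997 CPM in normoxic Ly6Chi and 418 to 844 CPM in normoxic Ly6Clo. None of that list was at 0 in normoxic Ly6Chi, and its part in the Hp difference was not tested.

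Ms4a4c stepped down from Ly6Chi to DC, Ly6Clo and AM, and the means of Plac8 had the same order. Ms4a4c averaged 487.5 ± 71.0 CPM in normoxic Ly6Chi, 203 ± 34.1 CPM in DC, 64.0 ± 22.1 CPM in Ly6Clo and 4.31 ± 5.59 CPM in AM. Each step was called, with log2 fold changes of 1.32 ± 0.32 for Ly6Chi over DC, 1.80 ± 0.37 for DC over Ly6Clo and 3.48 ± 0.50 for Ly6Clo over AM (adjusted p = 0.00201, 0.00033 and 2.843e-06). The step from Ly6Chi to DC was not called without litter 108 (adjusted p = 0.0603), and was called in 11 of 13 alternative settings (highest adjusted p = 0.0706). Over AM, Ms4a4c in Ly6Chi had the largest log2 fold change of the 7, at 6.595 ± 0.47 (96.6-fold). The normoxic AM libraries behind it had 0 to 25 Ms4a4c counts, and without AM normoxia replicate 1, which had the 25, it was 7.57 (190-fold). Without that library DC over AM was 6.29, against 5.28 with it, and Ly6Clo over AM was 4.52. Plac8 averaged 563 ± 105 CPM in Ly6Chi, 398 ± 131 CPM in DC, 276 ± 146 CPM in Ly6Clo and 43.9 ± 20.7 CPM in AM. Neighbours in this order were called only at the last step, with 2.35 ± 0.41 for Ly6Clo over AM (adjusted p = 7.975e-05); Ly6Chi over DC was 0.59 ± 0.35 (adjusted p = 0.2302) and DC over Ly6Clo 0.74 ± 0.38 (adjusted p = 0.177). Ly6Chi over Ly6Clo was called at 1.34 ± 0.39 (adjusted p = 0.00869), and not without litter 93 (adjusted p = 0.189).

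Among the other 3 populations some of the genes were called, and Vcan and Hp were called in none of the 3 normoxic comparisons. Leaving out 1 library at a time, Hp was called in 1 of 43 cases for DC over AM (adjusted p = 0.00469). It was also called in 1 of 43 for Ly6Clo over AM (adjusted p = 0.0144). Of 13 alternative settings, 3 called Hp in DC over AM, 1 called Hp in Ly6Clo over AM and 1 called Vcan in DC over AM. Of the 7, 2 (Ly6c2 and Ms4a4c) were higher in DC than in Ly6Clo, against 10.2% of all genes. In DC over AM 4 were higher (Ms4a4c, Ccr2, Plac8 and Ly6c2), against 26.2% of all genes, and Ly6c1 was lower, against 21.2%, with the litter limits given above. In Ly6Clo over AM 3 were higher (Ms4a4c, Ccr2 and Plac8), against 12.6% of all genes.

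The same comparisons were made in the hyperoxic libraries. There 6 of the 7 genes were higher in Ly6Chi than in Ly6Clo, against 14.9% of all genes, 4 were higher than in DC, against 8.91%, and 6 were higher than in AM, against 24.9%. Ly6c2 reached 5.84 ± 0.42 over Ly6Clo (57.35-fold), Hp 4.66 ± 0.45 over AM (25.2-fold) and Vcan 4.51 ± 0.36 over DC (22.7-fold). Over DC, Ly6c2 (1.20 ± 0.31, adjusted p = 0.00446) and Ms4a4c (1.02 ± 0.35, adjusted p = 0.0364) were not called without litter 93 (0.87, adjusted p = 0.251, and 0.76, adjusted p = 0.521). Of 13 alternative settings, 10 kept the Ly6c2 call and 8 the Ms4a4c call, and the Ms4a4c call was lost in 7 of 43 cases when 1 library was left out. Ly6c1, called over Ly6Clo and DC in normoxia, was not called in hyperoxia over either (1.32 ± 0.66, adjusted p = 0.1405, and 1.10 ± 0.62, adjusted p = 0.249); without Ly6Clo hyperoxia replicate 1 it was called over Ly6Clo (1.94, adjusted p = 0.0384). Vcan was 8.39-fold higher in Ly6Chi than in Ly6Clo in hyperoxia, against 35.1-fold in normoxia.

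**Figure D2:**
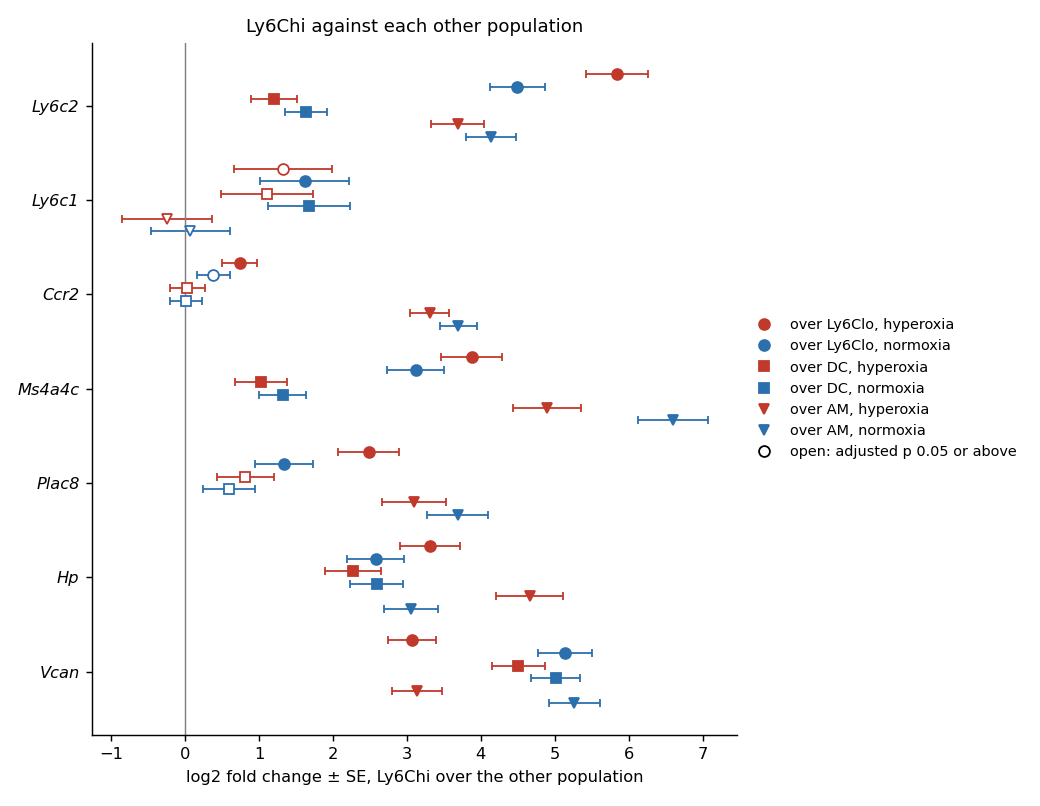
Log2 fold change of Ly6Chi over Ly6Clo, DC and AM for each gene, in hyperoxia and in normoxia, with SE bars; open symbols are not called at an adjusted p under 0.05. Vcan, Hp, Ly6c2 and Ms4a4c are called in every comparison; open are Ccr2 and Plac8 over DC and Ly6c1 over AM in both conditions, Ccr2 over Ly6Clo in normoxia, and Ly6c1 over Ly6Clo and DC in hyperoxia.

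Levels of different genes were compared per kilobase of the transcript with the longest coding sequence. In normoxic Ly6Chi the order was Hp (534 ± 71.0 CPM per kb), Ly6c2 (512.6 ± 87.5), Plac8 (460 ± 85.9), Ms4a4c (283 ± 41.2), Ccr2 (184 ± 17.9), Ly6c1 (79.9 ± 29.2) and Vcan (20.3 ± 4.78). Hp, Ly6c2 and Plac8 lay within their SD of each other. Vcan was the lowest of the 7 per length in all 4 populations. In normoxia Plac8 ranked first in DC (325 CPM per kb) and in Ly6Clo (225 CPM per kb), and Ly6c1 in AM (83.7 ± 51.9 CPM per kb, beside 72.4 ± 80.1 for Hp). In hyperoxic AM Plac8 was first (73.6 ± 57.4 CPM per kb) and Ly6c1 second (52.8 ± 63.7), within their SD. With all exonic bases of a gene in place of the coding transcript, Ly6c2 had rank 5 in normoxic Ly6Chi and Hp had rank 1 in normoxic AM.

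In Ly6Chi libraries the counts of Ly6c2, Plac8 and Ms4a4c varied less than the library totals. Over the 11 libraries totals ranged 2.33-fold, while Ly6c2 counts ranged from 746 to 886 (1.19-fold), Plac8 counts from 1013 to 1334 (1.32-fold) and Ms4a4c counts from 771 to 1107 (1.44-fold). Ccr2 ranged 2.43-fold, and its counts followed the total with a slope of 0.968 on log scales, against -0.0305 for Ly6c2. Vcan, the longest of the 7, had a slope of 0.181, and Hp and Ly6c1 had 0.621 and 0.811. The highest count per base of the coding transcript, over all libraries, was 1.08 for Ly6c2, 1.09 for Plac8, 1.14 for Hp and 0.642 for Ms4a4c. It was 0.464 for Ccr2, 0.244 for Ly6c1 and 0.0449 for Vcan. The cause of the slopes was not tested. With slopes near or below 0, CPM of Ly6c2 and Plac8 in Ly6Chi tended to be high in small libraries, and differences in them can be compressed. Correcting the counts for an upper limit set by transcript length, chosen after seeing the data, changed no call among the 7 genes, and moved Ly6c2 over DC in normoxia to 1.97.

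**Figure D3:**
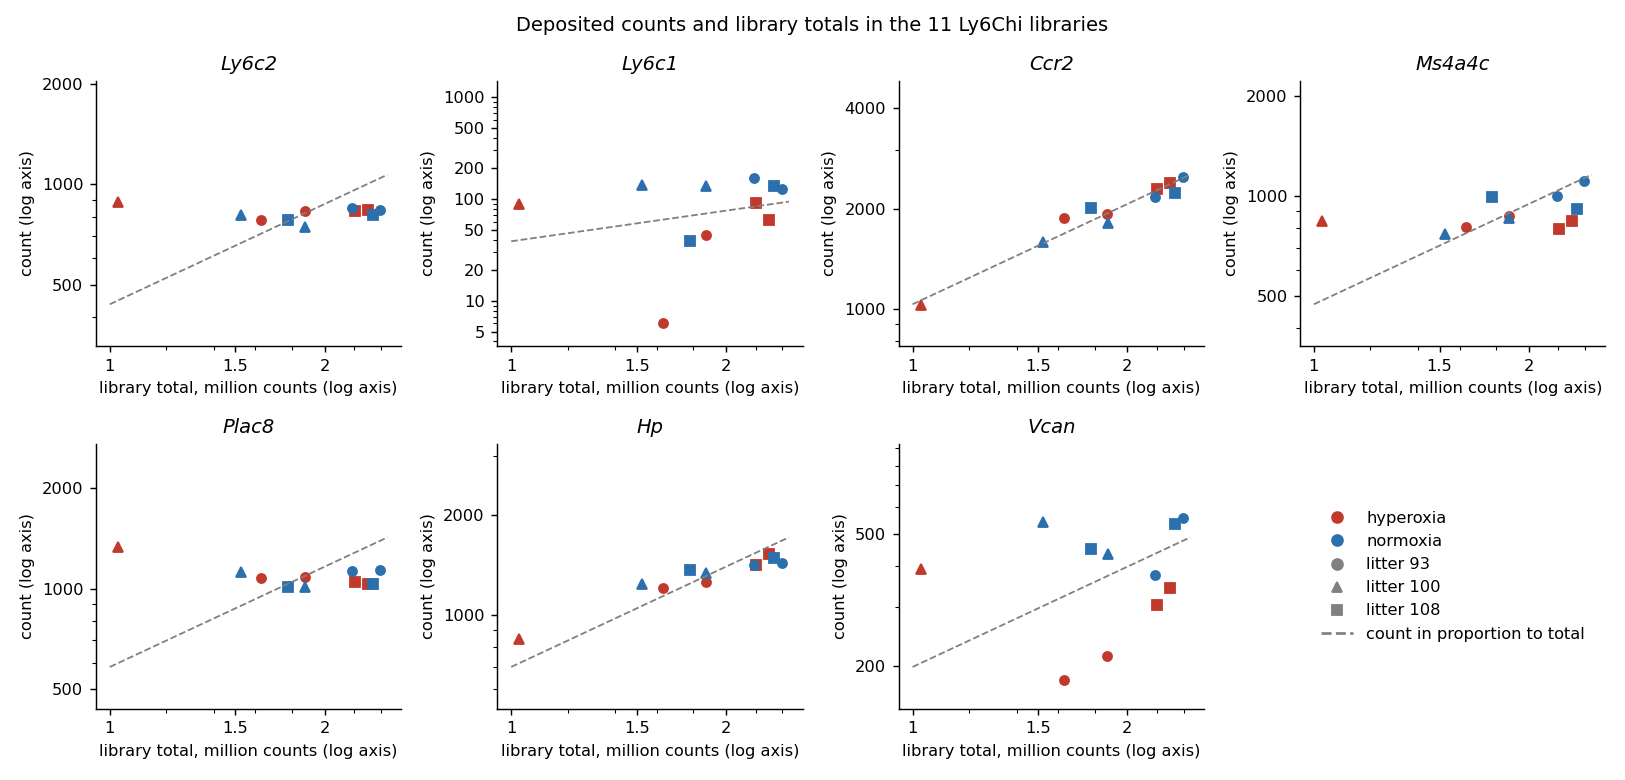
Counts of the 7 genes against the library total in the 11 Ly6Chi libraries, on log axes, with hyperoxia and normoxia in different colours; the dashed line shows counts proportional to the total. Ccr2 follows the line, while Ly6c2 (746 to 886 counts) and Plac8 (1013 to 1334 counts) stay nearly level.

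Hyperoxia changed 1 of the 7 genes when averaged over the populations. Vcan rose by 0.73 ± 0.18 on the log2 scale (1.65-fold, adjusted p = 0.0230), in a fit of all 43 libraries with litter as a term, where 3.02% of all genes were called. Within single populations, edgeR called 0 of the 7 in Ly6Chi, in Ly6Clo, in DC and in AM, where Ms4a4c was under the count filter. Over all genes it called 0%, 0%, 0% and 0.11% there, and 591, 540, 998 and 990 genes had an unadjusted p under 0.05. DESeq2 called 1 of the 7 in AM (Vcan), where it called 1.1% of all genes. In Ly6Chi, Ly6Clo and DC it called 0 of the 7, and 0.0461%, 0.00982% and 0.177% of all genes.

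The averaged Vcan value covers estimates of opposite sign in single populations, none of which edgeR called. In Ly6Clo, Vcan was at 13.2, 18.6, 19.1, 19.4 and 36.8 CPM in hyperoxia, against 2.62, 3.88, 8.64, 11 and 12.6 CPM in normoxia. These groups did not overlap, which was not counted over all genes, and all 3 litters were higher in hyperoxia. The log2 fold change was 1.77 ± 0.39, with rank 3 by p among the 10188 genes tested, but was not called (adjusted p = 0.860), and rests on 3 to 38 counts per library. In AM it was at 12.3, 17.1, 17.4, 19.0 and 38.1 CPM in hyperoxia, against a lowest, median and highest value of 1.13, 5.57 and 12.6 CPM in normoxia. Of the hyperoxic AM libraries, only the one at 12.3 CPM lay inside the normoxic range, and all 3 litters were higher. The log2 fold change was 1.79 ± 0.48 (adjusted p = 0.202), and 0.42 (adjusted p = 1) without the 4 AM libraries under 1000000 counts.

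In Ly6Chi the direction was the other one in most libraries. There 4 of 5 hyperoxic libraries, at 117 to 156 CPM, lay below every normoxic library (179 to 355 CPM), and the hyperoxic library of litter 100, at 411 CPM, lay above them all. The log2 fold change was -0.43 ± 0.21 (adjusted p = 0.758), and -0.80 (adjusted p = 0.505) without that library. In DC it was 0.15 ± 0.42. The test of whether the hyperoxia effect differed between populations called 0 of the 7 genes and 0% of all genes; 617 genes had an unadjusted p under 0.05, DESeq2 called 1 of the 7 (Vcan, adjusted p = 0.000848) and 0.136% of all genes, and in edgeR Vcan had rank 5 by p among 12529 genes (adjusted p = 0.0950). Over the alternatives, the adjusted p of this Vcan test ran from 8.49e-08 with no filter on low counts to 1 with the libraries of a litter summed. The Vcan effect in Ly6Chi minus that in AM was -2.135 ± 0.48, and minus that in Ly6Clo it was -2.065 ± 0.48, on the log2 scale (adjusted p = 0.110 and 0.201).

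The averaged Vcan call rests on a few libraries. It was lost without litter 100 (0.47, adjusted p = 0.451), without libraries under 1000000 counts (0.66, adjusted p = 0.168), with the libraries of a litter summed (0.80, adjusted p = 0.108) and with no litter term (0.66, adjusted p = 0.158). It was also lost without DC hyperoxia replicate 3 (adjusted p = 0.0594) or Ly6Chi hyperoxia replicate 3 (adjusted p = 0.0554), both of litter 100. Mesenchymal markers, of cells that also express Vcan, summed to 4.79 to 132.5 CPM in hyperoxic Ly6Clo and 26.0 to 117 CPM in normoxic Ly6Clo. In AM they summed to 13.4 to 168 CPM in hyperoxia and 15.3 to 141 CPM in normoxia. Of the 10 markers, 1 passed the count filter in Ly6Clo and 2 in AM, and their part in the Vcan level was not tested.

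**Figure D4:**
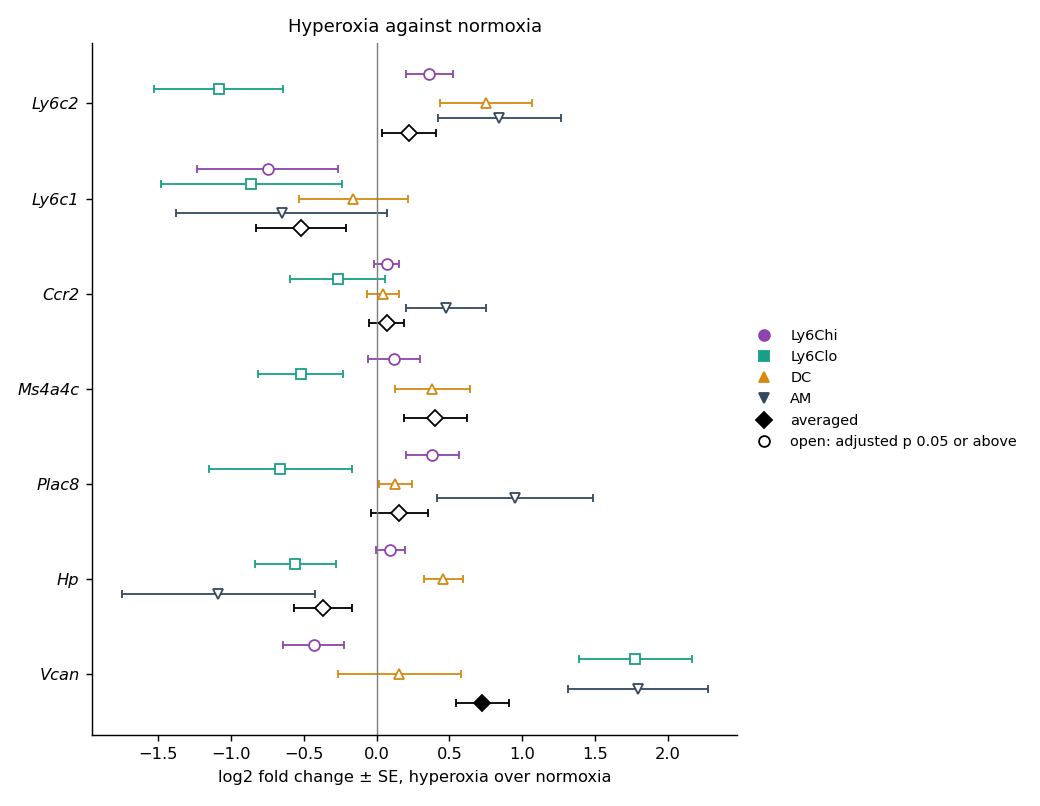
Log2 fold change of hyperoxia over normoxia for each gene, within Ly6Chi, Ly6Clo, DC and AM and averaged over the 4, with SE bars; filled symbols are called at an adjusted p under 0.05. Only averaged Vcan, at 0.73, is filled; Vcan lies at 1.77 in Ly6Clo, 1.79 in AM and -0.43 in Ly6Chi.

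The other genes had no called change. Ly6c2 in Ly6Clo did not overlap between hyperoxia and normoxia, which was not counted over all genes, and its log2 fold change was -1.08 ± 0.44 (adjusted p = 0.860), lower in hyperoxia in all 3 litters. In DC it was 0.75 ± 0.31 (adjusted p = 0.546), where hyperoxic libraries were at 125, 126, 133, 259 and 549.9 CPM and normoxic ones at 94.5, 144.5 and 174 CPM (lowest, median and highest). Without the hyperoxic library of litter 100 the DC value was 0.33 (adjusted p = 0.906). Hp in DC was at 0.46 ± 0.13 (adjusted p = 0.435, higher in all 3 litters), with 109.9, 126, 146, 186 and 229 CPM in hyperoxia and 103, 112 and 164 CPM (lowest, median and highest) in normoxia. Ccr2 had narrow bounds in Ly6Chi, at 0.07 ± 0.08, and in DC, at 0.04 ± 0.11. Ly6c1 was at -0.16 to -0.86 in the 4 populations, with SEs of 0.37 to 0.73. Averaged, Ms4a4c was at 0.40 ± 0.22, Plac8 at 0.16 ± 0.20 and Hp at -0.37 ± 0.20 (adjusted p = 0.3402, 0.728 and 0.335).

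In 3 of the populations the hyperoxic library of litter 100 was the highest of all for most of the 7 genes. How many of all genes were highest in it was not counted. It was above every other library of its population for Vcan and Ms4a4c in all 4 populations, for Ly6c2 and Plac8 in Ly6Chi, DC and AM, for Hp in Ly6Chi and DC and for Ly6c1 in Ly6Chi, and for Ccr2 in 0 of 4. Its interferon genes were also high. The 21 type I interferon genes summed to 6816 CPM in this library of Ly6Chi, 3409 in Ly6Clo, 5659 in DC and 1275 in AM, against highest values of 5779, 1507, 2423 and 939 CPM in the other libraries. Its totals were 1026528, 647844, 1309747 and 551960 counts, the smallest of the population in Ly6Chi, Ly6Clo and AM. Counts of Ly6c2 and Plac8 in Ly6Chi did not rise with the total (slopes of -0.0305 and -0.217), but this library was among the 11 fitted. Its own counts, 886 of Ly6c2 and 1334 of Plac8, were the highest of the 11. The slopes are therefore no separate account of its CPM. In Ly6Chi, mesenchymal markers summed to 363 CPM in this library and 54.8 to 180 CPM in the others. The part of any of these in the levels of the 7 genes was not tested.

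Ly6c1 moved from library to library with endothelial markers, and for Ly6c2 no such relation passed the test. The summed level of 12 endothelial markers correlated with Ly6c1 at a Pearson r of 0.91 in Ly6Chi (n = 11), 0.848 in Ly6Clo (n = 10), 0.887 in DC (n = 11) and 0.934 in AM (n = 11). Spearman's rho was 0.718, 0.782, 0.855 and 0.955 in the same order, and adjusted permutation p-values over the 8 relations tested ran from 0.00048 to 0.00632 for r. Spearman's adjusted permutation p-values were 0.0322, 0.0264, 0.00528 and 0.00016. The permutations took no account of litter or oxygen, and no p was computed with their group means removed. No other marker list was correlated with Ly6c1, so the relation is not shown to be particular to endothelial markers. Without the 2 libraries farthest from the median marker sum, r was 0.653, 0.682, 0.892 and 0.896, and with litter and oxygen group means removed it was 0.877, 0.914, 0.829 and 0.881. For Ly6c2 r lay between -0.297 and -0.0492, with adjusted permutation p-values from 0.597 to 0.912. Spearman's rho for Ly6c2 was -0.164, 0.0545, -0.391 and -0.236 in Ly6Chi, Ly6Clo, DC and AM. With litter and oxygen group means removed, r for Ly6c2 was -0.244, -0.282, -0.699 and 0.0472 in the same order. The value in DC was thus further from 0 than without this step.

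None of the 12 endothelial markers was at 0 in any group. Their sum had a lowest, median and highest value of 36.1, 352 and 643 CPM in hyperoxic Ly6Chi and 439, 850.3 and 1231 CPM in normoxic Ly6Chi, and of 173, 277 and 1289 CPM in hyperoxic AM and 310.1, 771 and 1630 CPM in normoxic AM. Averaged over populations, 0 of the 12 were called with hyperoxia by edgeR, where 3.02% of all genes were called. All 12 had a log2 fold change below 0. Their median was -0.67, beside -0.52 ± 0.31 for Ly6c1 (adjusted p = 0.395). The part of endothelial RNA in the Ly6c1 level was not tested.

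**Figure D5:**
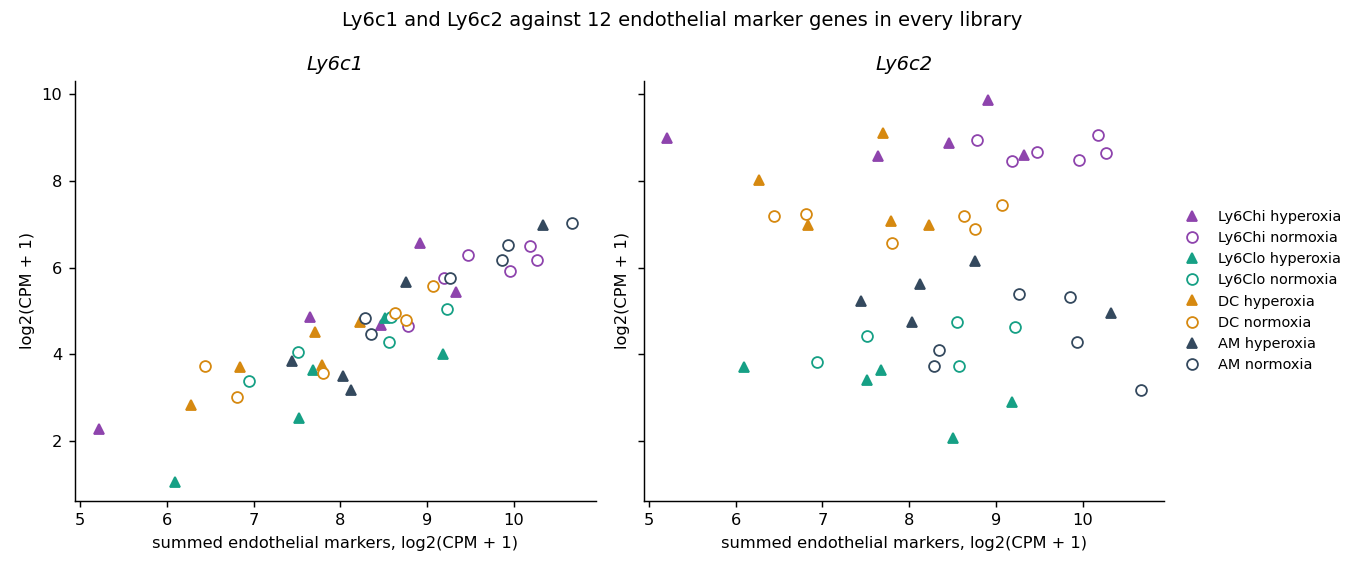
Ly6c1 and Ly6c2 levels against the summed level of 12 endothelial markers in each library, both as log2(CPM + 1). Colours give the population, filled triangles are hyperoxia and open circles normoxia. Ly6c1 is higher where the marker sum is higher in all 4 populations (r of 0.848 to 0.934), while r for Ly6c2 is -0.297 to -0.0492.

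Other genes of the classical monocyte programme were read from a list of 18. In normoxia 7 were higher in Ly6Chi than in Ly6Clo and 0 lower (median log2 fold change 0.43), where 13.7% of all genes were higher and 13.5% lower. Over DC 13 were higher and 1 lower (median 1.25), where 13.1% of all genes were higher and 12.9% lower. Over AM 12 were higher and 1 lower (median 1.13), where 27.4% of all genes were higher and 22.7% lower. Over Ly6Clo these included Thbs1, the gene of thrombospondin 1 (3.13 ± 0.34), F13a1, a coagulation factor subunit (2.995 ± 0.47), and Gsr, of glutathione reductase (0.78 ± 0.13). Averaged over populations, where 2.34% of all genes rose and 0.678% fell, 2 of the 18 rose with hyperoxia, Mgst1, a microsomal glutathione transferase (0.43 ± 0.10, adjusted p = 0.0135), and Clec4e, of the receptor Mincle (0.96 ± 0.26, adjusted p = 0.0339), with a median of 0.0076 over the list. Of 14 non-classical monocyte markers, 1 was higher and 2 lower in Ly6Chi than in Ly6Clo, against 13.7% and 13.5% of all genes: Nr4a1, a nuclear receptor needed for non-classical monocytes, was higher in Ly6Chi (1.78 ± 0.32), while Cd36 (-1.72 ± 0.33) and Cd300e (-3.43 ± 0.64) were lower. None of the 14 was called with hyperoxia by edgeR in the averaged fit, in which 2176 of all genes had an unadjusted p under 0.05, and Nr4a1 had the smallest p of them (-0.53 ± 0.18, adjusted p = 0.101).

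The partners and families of the 7 genes were read from further lists, beside 2.34% of all genes that rose with hyperoxia averaged over populations. Of 22 chemokine and trafficking genes tested, 3 rose with hyperoxia averaged over populations: Ccl5 (2.90 ± 0.66, adjusted p = 0.0141), Ccl3 (0.53 ± 0.13) and Itgam, the CD11b chain (0.45 ± 0.13). Itgam was also called within AM (1.70 ± 0.28, adjusted p = 0.0186), where 0.11% of all genes were. Of 9 haem and haemoglobin genes tested around Hp, 3 rose: Blvrb, a biliverdin reductase (0.89 ± 0.14, adjusted p = 0.00019), and the ferritin chains Fth1 (0.38 ± 0.09) and Ftl1 (0.30 ± 0.07). In normoxia 6 of these 9 were lower in Ly6Chi than in Ly6Clo, against 13.5% of all genes, and Hp was higher. Among the 6 were the haemoglobin scavenger receptor gene Cd163 and the iron exporter gene Slc40a1 (-3.81 ± 0.50). Of 8 Ly6 family genes tested, Ly6i rose with hyperoxia (1.315 ± 0.33, adjusted p = 0.0258), and of 9 Ms4a genes tested, Ms4a6d did (0.35 ± 0.10, adjusted p = 0.0364). In Ly6Chi over Ly6Clo in normoxia, Ms4a4c and Ms4a4b (2.24 ± 0.48) were among 3 of the 9 Ms4a genes that were higher, against 13.7% of all genes, and Ms4a7 (-2.55 ± 0.32) and Ms4a8a (-1.97 ± 0.24) were lower, against 13.5%. Of the 8 genes tested around versican, Tlr2, a receptor for which versican is a known ligand, rose with hyperoxia (0.43 ± 0.10, adjusted p = 0.0123). The calls of these other genes were not recomputed under the alternatives in which the averaged Vcan call was lost.

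Over the 8 group means of log2 CPM, Ms4a4c and Plac8 were the most alike pair of the 7 (Pearson r = 0.978), followed by Ccr2 with Ms4a4c (0.916) and Ccr2 with Plac8 (0.902). Ly6c1 was unlike the rest, at -0.337 to 0.357. Among 11256 genes, the one with the highest r to Ly6c1 was Wfdc1 (0.983), to Ly6c2 Rbm14 (0.989), to Ccr2 Man2b1 (0.997), to Vcan Ppp1r18 (0.990), to Ms4a4c Dglucy (0.996), to Plac8 Ifitm3 (0.990) and to Hp Tbpl1 (0.994). These r are over 8 means that share libraries and scaling, and describe likeness of pattern only.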

How the data were processed

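RNA of 4 sorted lung populations was sequenced from amplified cDNA (SMART-Seq v4 and Nextera XT kits, per the labels' protocols). The authors deposited raw counts, 1 row for each Ensembl gene and 1 column for each library. Build NCBIM37 and the tools HTSeq 0.4.1, TopHat, SAMtools, Picard and FastQC are named in the submitters' processing notes; their roles and the annotation are not given in the sources used here. Of 37991 identifiers, 32919 were given a symbol from GENCODE M21 (GRCm38), so no positions were taken from the files.

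Counts were tested in R 4.3.3 with edgeR 4.0.16 (robust quasi-likelihood F test, TMM, filterByExpr with a minimum count of 10 and minimum total of 15, litter as an additive term), adjusted by Benjamini-Hochberg over all genes tested and called under 0.05. Hyperoxia was fitted within each population, and averaged, interaction and population contrasts came from 1 fit of all 43 libraries. Scripts were tested on simulated data. DESeq2 1.42.0 and limma 3.58.1 were alternatives. Correlations used 100000 resamples, and figures Python 3.11.15 and matplotlib 3.10.9. The 7 genes are named in every comparison; from other lists at most 4 called genes with the smallest p are named, or the 1 with the smallest p where none was called. A gene that this rule names is not reported here. Members and lists were chosen with earlier results of these data known.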

Additional observations from a re-analysis of the deposited data

Results flagged for a closer look

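Of 56 sets of 1 gene in 1 group, 11 had a library far from the others by Dixon's test, where chance flags about 1 in 20. Of these, 9 are the hyperoxic library of litter 100, which is the smallest library of Ly6Chi, of Ly6Clo and of AM. In Ly6Chi it had the highest Vcan (410.9 CPM), Ly6c2 (928.7 CPM) and Plac8 (1398 CPM). In Ly6Clo it had the highest Vcan (36.76 CPM) and Ms4a4c (116.7 CPM). In DC it had the highest Vcan (18.61 CPM), Ms4a4c (613.5 CPM) and Plac8 (722.8 CPM), and in AM the highest Vcan (38.13 CPM). The other 2 are Ccr2 in Ly6Chi, at 1204 CPM in hyperoxia replicate 2 and 1251 CPM in normoxia replicate 5.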

How the results depend on the processing

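Libraries of both oxygen conditions share litters, so litter was the pairing block in every fit unless stated; the labels give no number that pairs single libraries. Alternatives were 14 settings and leaving out each of 43 libraries, and of 44 called results for the 7 genes none turned direction, while 22 of 53 results that were not called did in at least 1 alternative. With no filter on low counts, the number of genes called with hyperoxia was 1 in DC (1.73% of all genes), 4 in AM (1.65%), 2 in Ly6Clo (0.859%), 4 averaged (4.33%) and 5 for the difference between populations (2.2%), and in normoxia 4 for DC over Ly6Clo (11.7%) and 5 for Ly6Clo over AM (10.8%). DESeq2 called 1 in AM (1.1%) and 1 for the difference between populations (0.136%). The averaged count was 0 with no litter term (1.1% of all genes), with libraries of a litter summed (0.321%), without litter 100 (0.156%) and without libraries under 1000000 counts (0.766%), and 0 to 1 when single libraries were left out. For Ly6Chi over DC in hyperoxia the count was 2 with libraries of a litter summed (11.5% of all genes), without litter 93 (5.39%) and without litter 108 (11.2%). The cause was not tested.

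Among single genes, the call of Plac8 in Ly6Chi over Ly6Clo was also lost with no litter term (adjusted p = 0.137). Low counts limit Ms4a4c and Vcan in AM, with 0 to 28 and 2 to 31 counts per library. The counts carry no molecular identifiers, so they are not independent molecules.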
